A study of Homo sapiens with 8 samples.

Results

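NFKBIA, TNFAIP3 and BIRC3 are genes that NF-kB switches on and whose products feed back on NF-kB signalling. Binding around them of GR, the glucocorticoid receptor, and of PR, the progesterone receptor, was read from 8 lists of ChIP-seq peaks, places where the DNA pulled down with an antibody against the receptor piles up. A peak was taken as a member when any of its bases lay within 50 kb of a gene body, on the hg19 build: NFKBIA at chr14:35870716-35873960 (minus strand), TNFAIP3 at chr6:138188325-138204451 and BIRC3 at chr11:102188181-102210135 (both plus strand). Members numbered 47 of the 92175 receptor peaks used, with 23 at NFKBIA, 5 at TNFAIP3 and 19 at BIRC3.

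All libraries came from derivatives of T47D, an established human breast cancer cell line, kept in medium with hormone-stripped serum and then starved of serum. In the series' own description the A1-2 cells express both receptors, while the MTVL WT cells are labelled as the control. GR was precipitated with a mix of 2 antibodies from A1-2 cells that were untreated or had received 10 nM dexamethasone (Dex, a synthetic glucocorticoid) or 10 nM R5020 (a synthetic progestin) for 60 min. PR was precipitated with 1 antibody from untreated and R5020-treated cells of both derivatives, and input DNA of A1-2 cells made the eighth library. With 1 library for each condition there are no replicates, and no test was made of any difference between libraries. Read depth was unknown, and deeper libraries give more peaks.

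NF-kB is a family of dimeric transcription factors that inflammatory signals such as TNF release from inhibitors in the cytoplasm. NFKBIA encodes IkB-alpha, the inhibitor that captures NF-kB and removes it from the nucleus. TNFAIP3 encodes A20, a ubiquitin-editing enzyme that dampens the signal upstream of NF-kB. BIRC3 encodes cIAP2, a ubiquitin ligase of TNF receptor complexes that also protects cells from death. GR and PR are ligand-activated transcription factors that recognise closely related DNA elements, and glucocorticoids are known to raise NFKBIA and TNFAIP3 in several cell types.

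Receptor peaks at the 3 genes were found only in the hormone lists of GR after Dex and of PR after R5020. Within 50 kb of the genes lay 12 of the 18415 GR peaks of Dex-treated A1-2 cells. Of the PR peaks after R5020, 15 of 28262 lay there in A1-2 cells and 20 of 43070 in MTVL cells. The other 5 lists, which are untreated GR and PR of A1-2 cells, untreated PR of MTVL cells, GR after R5020 and the input, held 0 members each, so no member was left out for lying at an input peak. The receptor lists among them were short and had no peak in most of the genome. Whether their length accounts for the absences at the 3 genes was not tested. Of 30339 bins of 100 kb along the genome, 0.574% held an untreated GR peak, 0.916% an untreated PR peak of A1-2 cells, 0.656% an untreated PR peak of MTVL cells and 2.05% a GR peak after R5020. The nearest GR R5020 peaks were 0.291 Mb from BIRC3, 1.28 Mb from NFKBIA and 1.49 Mb from TNFAIP3, with scores of 145, 117 and 1988.

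The genes differed in how many peaks they had. At NFKBIA there were 7 GR Dex peaks, 8 PR peaks in A1-2 cells and 8 in MTVL cells. For the same lists BIRC3 had 4, 6 and 9 peaks, and TNFAIP3 had 1, 1 and 3. To read these counts against the genome, the peaks in a stretch of 100 kb centred on each gene were set beside the bins of 100 kb. That stretch held 7, 8 and 8 peaks at NFKBIA, and 0.577%, 0.883% and 1.87% of bins held at least as many in the same lists. For BIRC3 it held 4, 5 and 8 peaks, and 3.54%, 4.04% and 1.87% of bins held at least as many. For TNFAIP3 it held 0 GR Dex peaks, 1 PR peak of A1-2 cells and 2 of MTVL cells. A bin with at least 1 peak was 31.5% of all bins for GR Dex, 41.9% for PR in A1-2 cells and 55.5% for PR in MTVL cells, and a bin with at least 2 MTVL peaks was 33.5% of them. At this width NFKBIA and BIRC3 thus lay in dense stretches of all 3 lists, and TNFAIP3 did not. The contrast between BIRC3 and TNFAIP3 depends on the width taken. With overlapping peaks merged, a window of 100 kb to each side held 9 sites at TNFAIP3, 10 at BIRC3 and 13 at NFKBIA. The bins run over assembly gaps, where no peak can be called.

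**Figure D1:**
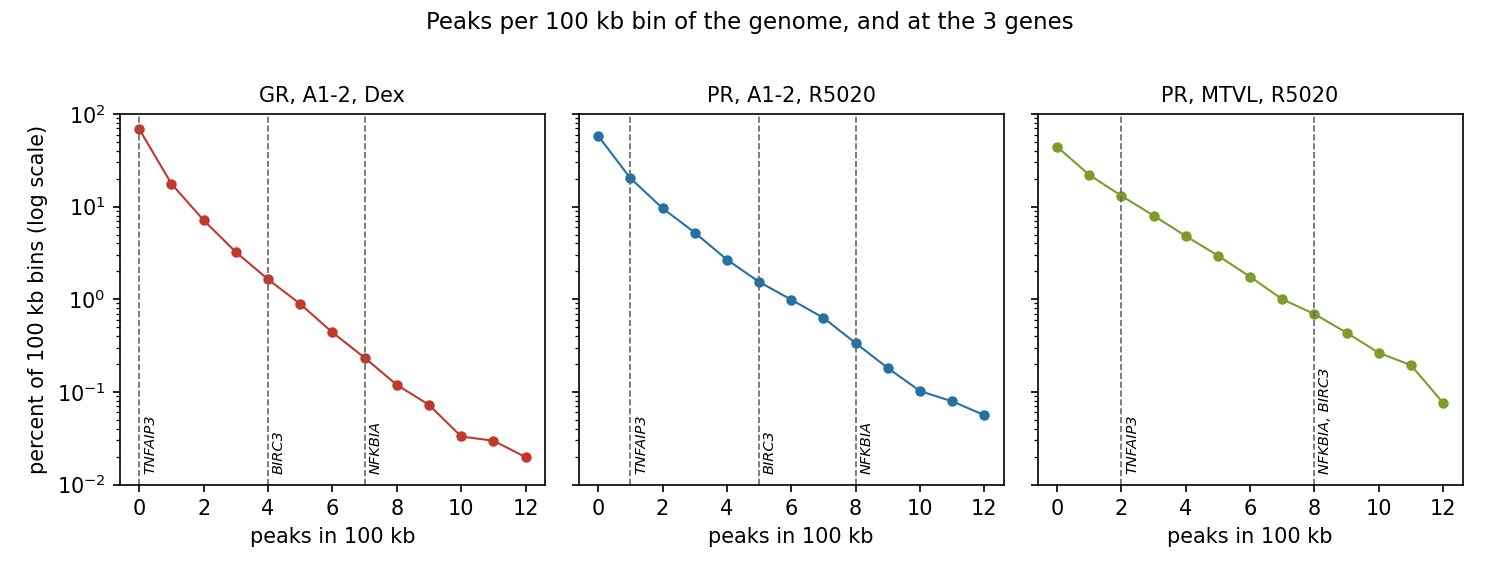
Percent of 100 kb bins of the genome (vertical axis, log scale) that hold a given number of peaks (horizontal axis, shown up to 12), for GR after Dex and for PR after R5020 in each cell line; dashed lines mark the number of peaks in the 100 kb centred on each gene. The lines of NFKBIA (7, 8 and 8 peaks) and BIRC3 (4, 5 and 8 peaks) stand in the thin right part of the distributions, and that of TNFAIP3 (0, 1 and 2 peaks) in the bulk.

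Overlapping peaks of the 3 hormone lists merged into 22 sites, 10 near NFKBIA, 3 near TNFAIP3 and 9 near BIRC3. Of these, 8 lay upstream of a gene, 2 over a gene start, 3 in a gene body and 9 downstream. GR and PR of either line were both called at 11 of the 22 sites, PR without GR at 10 and GR without PR at 1. No such shares were computed over merged sites of the whole genome, so these site counts have no background. The shares that follow are of the peaks in each list. A PR peak of A1-2 cells lay at 10 of the 12 GR Dex members (73.8% over the whole GR Dex list), one of MTVL cells also at 10 (69.3%), and both at 9 (63.3%). Of the 15 PR peaks of A1-2 cells, 14 were also PR peaks of MTVL cells (82.7% over the whole list), 10 overlapped a GR Dex peak (48.2%), and 5 had an MTVL peak but no GR Dex peak (41.5%). Of the 20 PR peaks of MTVL cells, 14 were found in A1-2 cells (53.8%), 10 lay at a GR Dex peak (29.5%) and 6 had neither (43.6%). With so few members these counts are a description and were not tested. Where peaks of different lists overlapped, their midpoints were within 94 bp of each other in 31 of 34 pairs, and the overlap covered at least 91.5% of the shorter peak in each pair. The other 3 pairs set a wide PR peak of MTVL cells against a narrower peak. They were the 1267 bp peak upstream of TNFAIP3 against GR (463 bp, midpoints 394 bp apart) and against PR of A1-2 cells (493 bp, 429 bp apart), and the 1222 bp peak farthest upstream of BIRC3 against PR of A1-2 cells (646 bp, 275 bp apart).

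**Figure D2:**
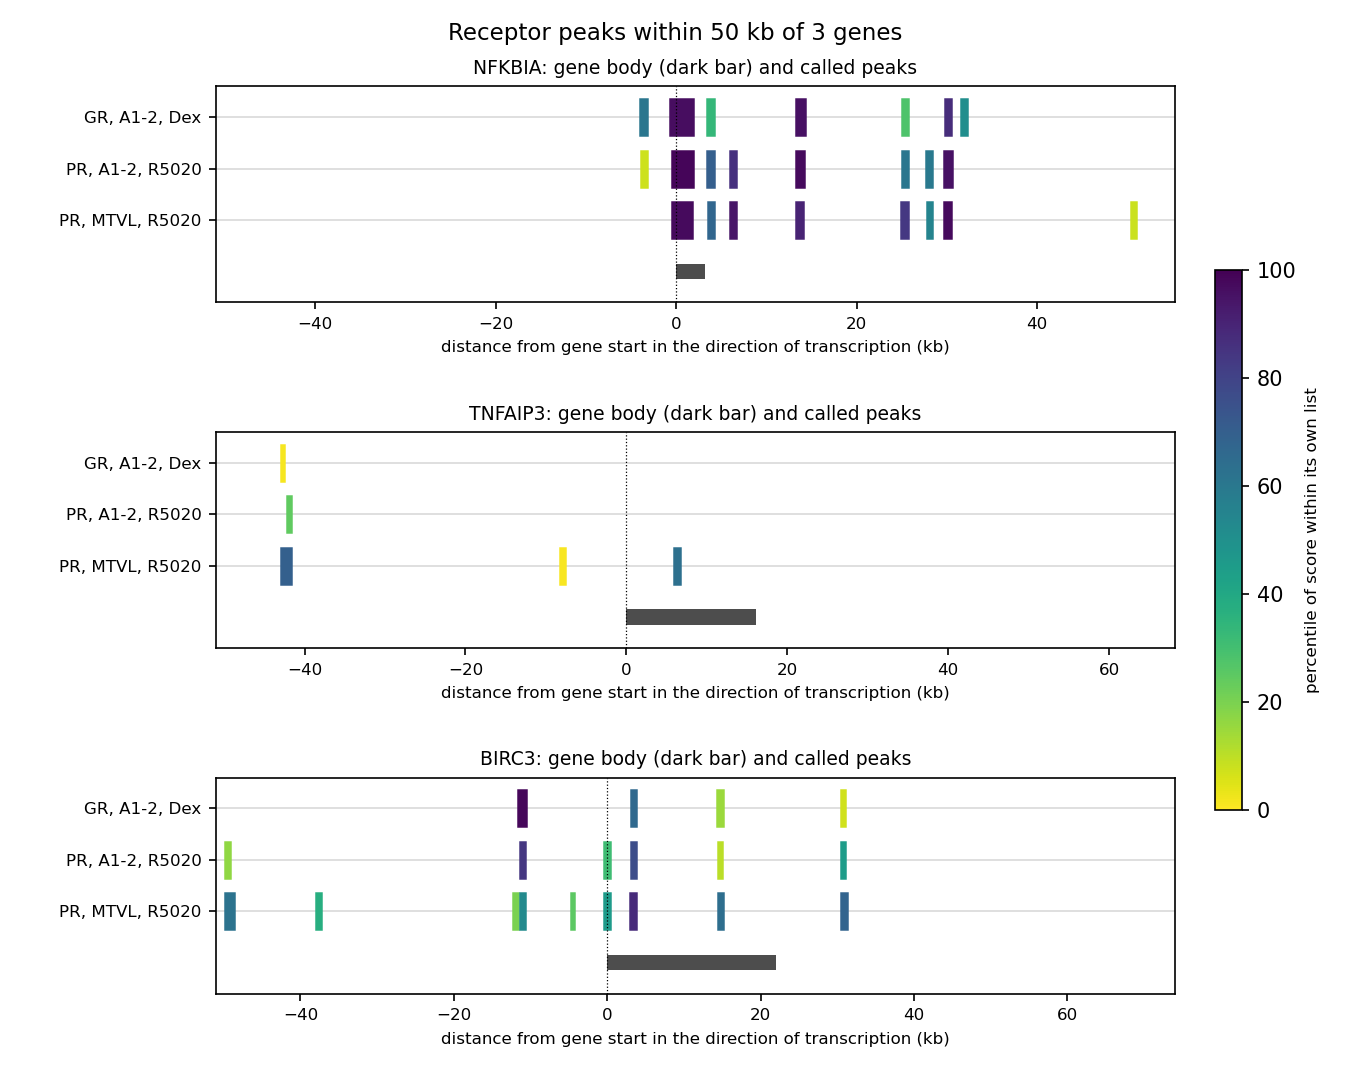
Called peaks around NFKBIA, TNFAIP3 and BIRC3, drawn to scale against the distance from the gene start in the direction of transcription (kb), with 1 row for each of the 3 lists that held members; the color gives the percentile of the peak's score within its own list, and the dark bar is the gene body. NFKBIA has peaks from 3.58 kb upstream of its start to 31.9 kb downstream of it and 1 MTVL PR peak at 50.7 kb, BIRC3 on both sides of its start, and TNFAIP3 5 peaks in all.

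The peak score deposited by the authors, taken as the negative log10 of a p-value, multiplied by 10, ranks peaks only within a list, because it grows with depth. A percentile below is the percent of a peak's own list that scored lower, with tied peaks split evenly between lower and higher. Members covered nearly the whole range of their lists. GR Dex members had scores from 101 to 1901 with a median of 219, against 193 over the list. PR members of A1-2 cells ran from 111 to 3100 with a median of 330 (244 over the list), and those of MTVL cells from 102 to 3100 with a median of 501 (313 over the list). Many PR peaks are tied at a score of 3100, which is not the top of a list. The highest scores were 3203 for GR Dex, 3226 for PR in A1-2 cells and 3233 for PR in MTVL cells.

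The gene starts are the first place where the genes part, and the 250 bases before each start are shown because NFKBIA had all 3 kinds of peak there, BIRC3 had PR peaks only and TNFAIP3 had none. The sequences are those of RefSeq on GRCh38.p14, a later build than that of the peaks, and the RefSeq start may differ by some bases from the hg19 start used for distances. They are chr14:35404750-35404999 (minus strand), chr6:137867009-137867258 (plus strand) and chr11:102317234-102317483 (plus strand), read 5′ to 3′ along the gene, with matches to the NF-kB motif in capitals.
NFKBIA: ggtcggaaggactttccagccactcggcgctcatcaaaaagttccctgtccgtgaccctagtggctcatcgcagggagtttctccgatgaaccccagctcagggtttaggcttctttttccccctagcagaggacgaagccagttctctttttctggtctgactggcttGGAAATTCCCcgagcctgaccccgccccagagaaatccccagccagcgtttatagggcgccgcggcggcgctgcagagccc
TNFAIP3: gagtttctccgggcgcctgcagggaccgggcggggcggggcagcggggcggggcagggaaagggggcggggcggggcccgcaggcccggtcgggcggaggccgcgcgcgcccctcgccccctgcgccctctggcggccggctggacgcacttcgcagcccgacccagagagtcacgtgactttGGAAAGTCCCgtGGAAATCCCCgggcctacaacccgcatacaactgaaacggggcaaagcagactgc
BIRC3: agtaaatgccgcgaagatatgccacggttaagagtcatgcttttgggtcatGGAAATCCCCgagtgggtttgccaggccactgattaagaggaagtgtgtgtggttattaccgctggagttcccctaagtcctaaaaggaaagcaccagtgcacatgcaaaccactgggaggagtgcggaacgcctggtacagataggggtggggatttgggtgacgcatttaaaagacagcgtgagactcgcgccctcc

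All 3 promoters held the NF-kB motif, searched on both strands as GGG and TTTCC with any 2 bases between, and 1.73% of 35116 RefSeq promoters did. These are promoters of genes that NF-kB switches on, so that share is a background and no test of enrichment. Each match was on the opposite strand, so the capitals show its reverse complement, GGAAA and CCC with 2 bases between. In NFKBIA it lay 81 to 72 bases before the start, in BIRC3 199 to 190 bases before it, and in TNFAIP3 there were 2 matches, 67 to 58 and 55 to 46 bases before it. The core hexamer of the GR and PR element, AGAACA, was in none of the 3 windows and in 12.4% of all promoters. The full palindrome, AGAACA and TGTTCT with any 3 bases between (0.00285% of promoters), contains the hexamer, so its absence follows from that. Its relaxed form, AGNACA and TGTNCT with any 3 bases between (0.0456%), can contain the hexamer and was also in none. The AP-1 motif TGANTCA (6.57%) and the forkhead motif TGTTTAC (2.98%) were in none either. TATAAA (10.7%) had 1 match, in NFKBIA, as TTTATA 33 to 28 bases before the start. A match is a run of letters, not a bound site, and these windows are shorter than the peaks over them.

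At NFKBIA, the IkB-alpha gene, the site over the gene start was wide and among the strongest of each list. The GR Dex peak, chr14:35872096-35874592, was 2497 bp wide, 3.79 times the list's median, and reached from 632 bases before the start to 1864 bases past it. The PR peaks there were 2298 bp wide in A1-2 cells and 2267 bp in MTVL cells. Only 0.510% of GR Dex peaks, 0.596% of A1-2 PR peaks and 0.396% of MTVL PR peaks were wider, and the other 44 members measured 463 to 1267 bp. All 3 peaks covered the whole of the 250 bases before the start. The GR Dex score was 1385 (percentile 96.8), and both PR peaks had the tied score of 3100. A wide peak can hold more than 1 bound position, and the lists give no summits.

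Other strong NFKBIA sites stood downstream of the gene, on the side where PSMA6, a proteasome subunit gene, is the next gene in RefSeq order. At 13.8 kb past the start, counted by the GR midpoint, GR after Dex had its strongest peak of this locus apart from that at the gene start (chr14:35859706-35860682, score 1191, percentile 95.8). PR scored 3048 there in A1-2 cells (percentile 97.6) and 1990 in MTVL cells (percentile 90.4). At 30.1 kb the scores were 599 for GR Dex (percentile 87.4), 2302 for PR in A1-2 cells (percentile 95.7) and the tied score of 3100 for PR in MTVL cells (percentile 97.5). These 3 sites led the locus in the GR list and in the PR list of A1-2 cells. In MTVL cells the site 13.8 kb away came after that at 6.29 kb.

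Weaker sites of all 3 lists lay close to the end of the gene and farther out. At 3.8 kb past the start the score was 148 for GR Dex (percentile 33.5), 454 for PR in A1-2 cells (percentile 70.2) and 575 for PR in MTVL cells (percentile 67.5). At 25.3 kb it was 138 for GR Dex (percentile 28.1), 330 for A1-2 PR (percentile 60.9) and 1286 for MTVL PR (percentile 83.9). In both places GR stood low in its list and PR above the median of its own.

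A strong PR site at NFKBIA had no GR Dex peak. It lay 6.29 kb past the start, with scores of 2846 for PR in MTVL cells (chr14:35867304-35868034, percentile 94.5) and 996 in A1-2 cells (percentile 86.2). Among PR peaks of the same decile of the A1-2 list by score, 20.0% had no GR Dex peak (80.0% had one, 78.5 to 81.5 as the exact 95% binomial interval for counting error), and in the decile of the MTVL peak 24.6% had none. PR without GR at this strength was therefore less common than PR with GR, but not rare. The other NFKBIA site of both PR lists without GR, 28.0 kb past the start, had scores near the middle of its lists, 317 in A1-2 cells and 365 in MTVL cells. In the deciles of those 2 peaks, 55.2% and 75.8% of PR peaks had no GR Dex peak.

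GR Dex peaks at NFKBIA that MTVL cells did not share were 2. The one 3.58 kb upstream of the start, chr14:35877150-35877921, scored 241 in the GR list (percentile 60.7) and 111 in the A1-2 PR list (percentile 7.77), and it was the sole A1-2 PR member without an MTVL peak. GR with PR of A1-2 cells but not of MTVL cells made up 10.5% of the GR Dex list. The one 31.9 kb downstream scored 196 for GR (percentile 51.0) and was the sole member with GR and no PR peak in either line, a class that made up 20.2% of the GR Dex list. PR in MTVL cells alone had a peak at the far end of the window, 50.7 kb past the start, with a score of 116 (percentile 8.04). In its decile of the MTVL list by score, 81.1% of peaks were not found in A1-2 cells.

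**Figure D3:**
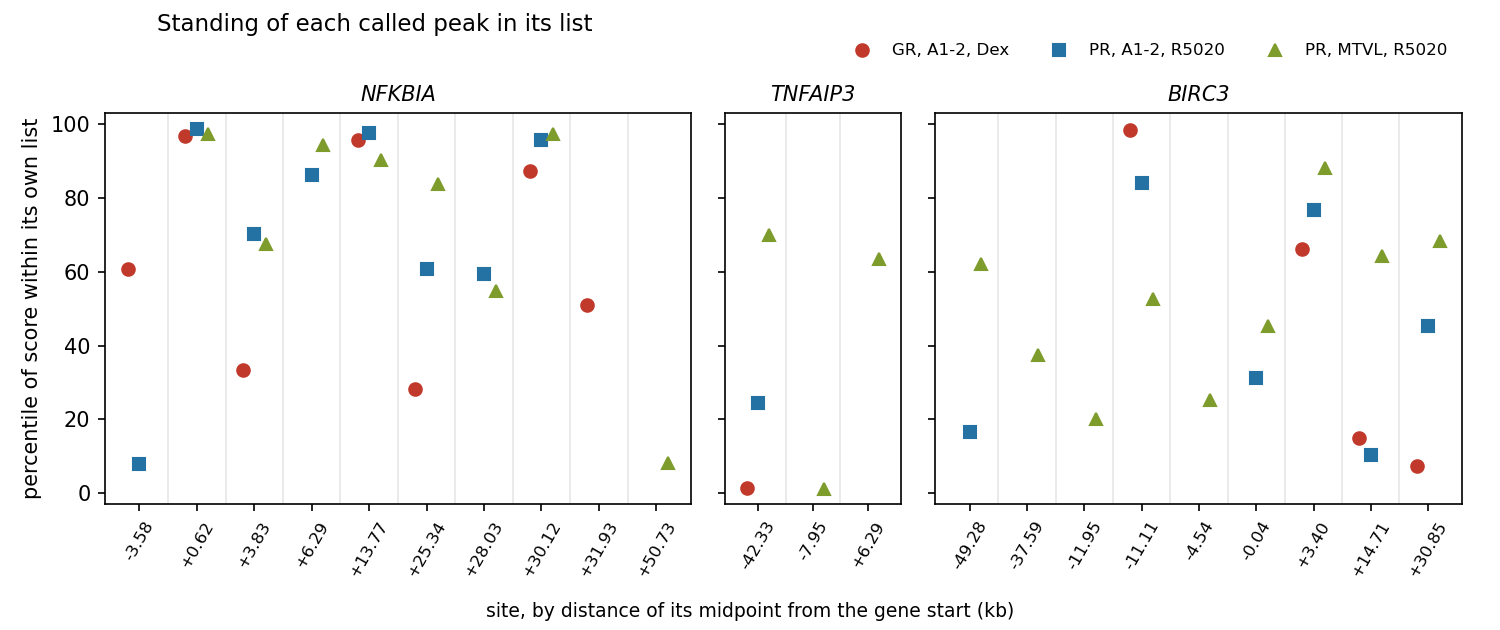
Percentile of each member's score within its own list (vertical axis) at the 22 sites, ordered by the distance of the merged site's midpoint from the gene start (kb, negative upstream); circles are GR after Dex, squares PR of A1-2 cells and triangles PR of MTVL cells after R5020, each from 1 library. All lists stand above 96 at the NFKBIA gene start; upstream of BIRC3 at -11.11 kb the GR peak stands at 98.4 and the MTVL PR peak at 52.5.

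At TNFAIP3, the A20 gene, A1-2 cells had few and low-scoring peaks, MTVL cells had 2 PR peaks above their list's median score of 313, and no peak lay over the gene start. The single GR Dex peak, chr6:138145349-138145811, was 42.7 kb upstream and had a score of 101 (percentile 1.43), just above the calling threshold of 100. The single PR peak of A1-2 cells lay 41.9 kb upstream with a score of 144 (percentile 24.5). These peaks did not overlap, with a gap of 345 bp between them. In MTVL cells 1 PR peak of 1267 bp, with a score of 638 (percentile 69.9), covered all of the first and 91.5% of the second and joined them into 1 site.

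MTVL cells had another pair of PR peaks at TNFAIP3. One was in the gene body, 6.29 kb past the start (chr6:138194292-138194932), with a score of 495 (percentile 63.6). Of the MTVL peaks in the same decile by score, 64.6% were found in A1-2 cells and this one was not. The other was 7.95 kb upstream, with a score of 102 (percentile 1.01). In its decile 81.1% of MTVL peaks were not found in A1-2 cells, so its absence there was the more common outcome. Over the whole of chromosome 6, 50.4% of MTVL PR peaks were found in A1-2 cells (48.5 to 52.4), compared with 53.8% over the whole list. It was 66.8% on chromosome 14 (64.4 to 69.2) and 61.4% on chromosome 11 (59.3 to 63.5). MTVL and A1-2 cells had 2572 and 1497 PR peaks on chromosome 6. They had 1487 and 1386 on chromosome 14, and 2163 and 1766 on chromosome 11. Whether these differences between chromosomes have a part in the counts at the 3 genes was not tested.

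The window of 50 kb left out a stronger site upstream of TNFAIP3. Just outside it, 55.2 kb upstream of the gene, PR scored 1350 in MTVL cells and 534 in A1-2 cells, and GR after Dex scored 426 at 55.3 kb. Inside it, the farthest peaks upstream were those of the site 42 kb away, already given. At NFKBIA the nearest peaks outside lay 56.9 kb downstream for PR, with scores of 2384 in MTVL cells and 1310 in A1-2 cells, and 57.0 kb downstream for GR, with a score of 712. The farthest inside was the MTVL peak with a score of 116. At BIRC3 the PR peaks just outside, 55.0 kb upstream in MTVL cells and 55.1 kb in A1-2 cells, scored 212 and 205, and those just inside, 48.7 and 49.2 kb from the gene, scored 467 and 127. Next to TNFAIP3 in RefSeq's order is WAKMAR2, a long noncoding RNA gene that overlaps it, and the peaks upstream were not assigned to either gene.

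At BIRC3, the cIAP2 gene, a site 11.1 kb upstream carried the strongest GR peak of the 3 genes. The GR Dex peak, chr11:102176556-102177592, had a score of 1901 and ranked 292 in its list (percentile 98.4). PR of A1-2 cells had its strongest BIRC3 peak there too, with a score of 876 (percentile 84.2). In MTVL cells the PR peak of that site, whose midpoint was 1 bp from that of the A1-2 PR peak, had a score of 337 (percentile 52.5) and ranked 5 among the 9 MTVL peaks near the gene.

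A site in the gene body had the opposite order. At 3.4 kb past the start, PR of MTVL cells had its strongest BIRC3 peak (chr11:102191192-102191956, score 1678, percentile 88.2). PR of A1-2 cells scored 589 there (percentile 76.7) and GR after Dex scored 274 (percentile 66.2). Within the GR list, and within the PR list of A1-2 cells, the upstream site thus scored above the gene-body site, and within the PR list of MTVL cells it scored below. With 1 library per line, this turn of the order has no replicate check.

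The BIRC3 gene start was bound by PR but had no GR Dex peak. PR peaks reached from 413 bases before the start to 374 bases past it in A1-2 cells (score 163, percentile 31.2) and from 464 before to 319 past in MTVL cells (score 273, percentile 45.4), and both covered all of the 250 bases before the start. In the same decile of the A1-2 list by score, 68.0% of PR peaks had no GR Dex peak, so the absence of GR was the usual state of PR peaks of this strength.

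Farther along BIRC3, all 3 lists had weak to middling peaks at 14.7 and 30.8 kb past the start. At 14.7 kb, inside the gene body, GR Dex scored 117 (percentile 14.9), PR in A1-2 cells 115 (percentile 10.2) and PR in MTVL cells 507 (percentile 64.2). At 30.8 kb the scores were 107 (percentile 7.35), 216 (percentile 45.3) and 596 (percentile 68.3). That last site lies beyond the end of BIRC3, on the side of BIRC2, a related ubiquitin ligase gene that is next in RefSeq order. The bounds of BIRC2 on hg19 were not used, so the site may lie within BIRC2. It was not assigned to either gene.

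PR peaks without GR upstream of BIRC3 were those of the window's edge, 49 kb away, with scores of 467 in MTVL cells and 127 in A1-2 cells, and 3 of MTVL cells alone. The latter lay 37.6, 11.95 and 4.54 kb upstream, with scores of 220, 147 and 165. They stood at percentiles 37.4, 20.1 and 25.3 of the MTVL list, in deciles of which 36.7%, 29.3% and 29.3% of peaks were found in A1-2 cells, so their absence from A1-2 cells was the more common outcome for such peaks. The one at 11.95 kb ended 45 bp short of the strong GR peak described above.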

How the data were processed

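The authors deposited 1 list of ChIP-seq peaks per library, giving each peak's position and score. MACS 1.4.2, Bowtie 1.1.1 and bedtools are named for hg19, per the submitters' processing notes. How they were set, which control library was used, how reads were filtered and how deep the libraries were is not given in the sources used here. No header explains the deposited score. It starts at 100 in the lists, and with the 1e-10 threshold in the deposited names it was taken as MACS's -10 times log10 of p and used only within a list. Starts were converted to count from 1.

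Samples were grouped by title. Peaks outside chromosomes 1 to 22 and X, or overlapping an A1-2 input peak by at least 1 bp, were left out. No input of MTVL cells was used here. Gene bodies were given on hg19 with the choice of genes; strands come from RefSeq's promoter table, in which all 3 genes matched. No hg19 annotation or genome was used, so exons, introns and peak sequences are not given, and the planned count over other NF-kB pathway genes and the search for genes of like pattern were not run. Sites are merged overlapping peaks. Every site is accounted for, and sites in 2 or more lists, with the strongest of each gene, are given in full. Shares over a list have exact (Clopper-Pearson) 95% intervals, which cover counting error only. Genes, lists and settings were chosen with earlier results of these data known.

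The overlap and merging steps were tested on simulated data and against bedtools 2.31.1. Computations used Python 3.11.15, numpy 2.4.6, scipy 1.17.1 and matplotlib 3.10.9.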

Additional observations from a re-analysis of the deposited data

How the results depend on the processing

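Of 90 alternative values over 25 results, 76 stayed within 1.5 times the count, or within the 95% interval of a share or percentile, and 14 moved further. The 2 rules differ in strictness, so this tally is not on 1 scale. The strongest A1-2 PR peak at NFKBIA went from percentile 98.7 to 98.9 and was taken as moved. The MTVL PR members rose from 20 to 30 with a window of 100 kb and were taken as the same. The 76 values that stayed include the counts of the untreated lists and of GR after R5020, which were 0 under every setting. Most settings could not have raised a count of 0. Asking for scores of 200 or more left 6 of the 12 GR Dex peaks, and the GR Dex peaks with an A1-2 PR peak fell from 6 to 3 at NFKBIA and from 4 to 2 at BIRC3, since this setting removes weak peaks by construction. Lists of equal length (18415 peaks) left 12 of the 20 MTVL PR peaks. A window of 100 kb raised the sites near TNFAIP3 from 3 to 9, and its GR Dex peaks with an A1-2 PR peak from 0 to 2. The same window raised the sites near BIRC3 from 9 to 10 and those near NFKBIA from 10 to 13. The site counts of TNFAIP3 and BIRC3 were then close. Ranked within the chromosome, the strongest peaks stood at percentiles 95.9 for GR Dex, 98.9 for A1-2 PR and 98.0 for MTVL PR at NFKBIA, at 98.0, 83.1 and 87.4 at BIRC3, and at 0.944 for GR Dex and 26.0 for A1-2 PR at TNFAIP3. Keeping peaks at input peaks, a window of 25 kb, midpoints in the window, an overlap of 50% of the shorter peak, midpoints within 200 bp, merging over gaps of 500 bp and bins offset by 50 kb moved no count past 1.5 times and no share of bins out of its interval. No paired analysis was possible because each condition had 1 library. Depth was unknown, so a site without a peak is one not called, not one shown to be unbound.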
